A study of Mus musculus with 12 samples.

Results

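Wounds of diabetic mice that received the bacterium Alcaligenes faecalis were compared directly with wounds that received Staphylococcus aureus. The comparison rests on the 4 libraries of each treatment, 8 of the 12 libraries of the series, and on the 18218 of 29956 named genes that passed a filter on low counts. Every mouse was B6.BKS(D)-Leprdb/db, a genotype that removes the signalling form of the leptin receptor and leads to obesity, diabetes and slow wound closure. Punch wounds through the full skin thickness were made on the back, bacteria in phosphate-buffered saline were applied to each wound, and skin was frozen on day 3. The remaining 4 mice received buffered saline with 10% glycerol as vehicle; glycerol is not named for the bacterial groups. Vehicle levels are given as background. Per the series design text each group held 4 mice, so each library is read as 1 mouse. The age and sex of the mice are not given in the sources used here, every group was diabetic, and the number of bacteria left in the wounds is not analysed here.

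At the edge of a healing wound, keratinocytes change into a migrating state marked by stress keratins, ligands of the epidermal growth factor (EGF) receptor and secreted proteases. Matrix metalloproteinases are zinc enzymes that cut collagens and other matrix proteins, and tissue inhibitors hold them in check. Neutrophils enter a wound first and monocyte-derived macrophages follow. A. faecalis is Gram-negative, and the lipopolysaccharide of such bacteria is sensed through Tlr4 and its partner Ly96. S. aureus is a Gram-positive skin pathogen sensed in part through Tlr2, and interleukin-17, neutrophils and antimicrobial peptides are known to limit it in skin.

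Library totals were 42.2 to 71.3 M (mega) estimated counts with A. faecalis and 38.4 to 58.4 M with S. aureus. Levels are in CPM, counts per M of scaled library size. Genes are said to be called at an adjusted p under 0.05 in edgeR's quasi-likelihood test (Benjamini-Hochberg over all genes), and log2 fold changes are coded as A. faecalis minus S. aureus, so that a negative value is a higher level with S. aureus. In a principal component analysis of the 8 libraries the first component took 41.1% of the variance, with the A. faecalis libraries at -41.2 to -34.4 and the S. aureus libraries at 27.1 to 49.8. EdgeR called 2310 genes, 12.7% of those tested. Of these, 922 (5.06%) were higher with A. faecalis and 1388 (7.62%) higher with S. aureus, 218 and 523 of them by at least 2-fold. With upper-quartile scaling the split was nearly even, 1124 against 1211. The median log2 fold change of all genes was 0.02. In 4243 genes (23.3%), called or not, the 2 bacterial groups did not overlap. Counts of called genes in the lists below are to be read beside 5.06% and 7.62% by direction, or 12.7% in either. The same model called 2 genes (0.011%) between A. faecalis and vehicle (Mmp10 and Colq) and 1246 (6.84%) between S. aureus and vehicle. Both of these contrasts use the vehicle libraries, and no test of their difference other than the direct comparison was made. The count of 2310 was 1313 without S. aureus replicate 3, 1337, 1392 and 1423 without A. faecalis replicates 3, 4 and 2, and 1510 without S. aureus replicate 4. Without vehicle replicate 3, 1590 genes were called higher with A. faecalis in place of 922. Of the 2310 genes, 1085 were called in each of the 12 fits that left out 1 library, and no called gene changed sign in them.

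**Figure D1:**
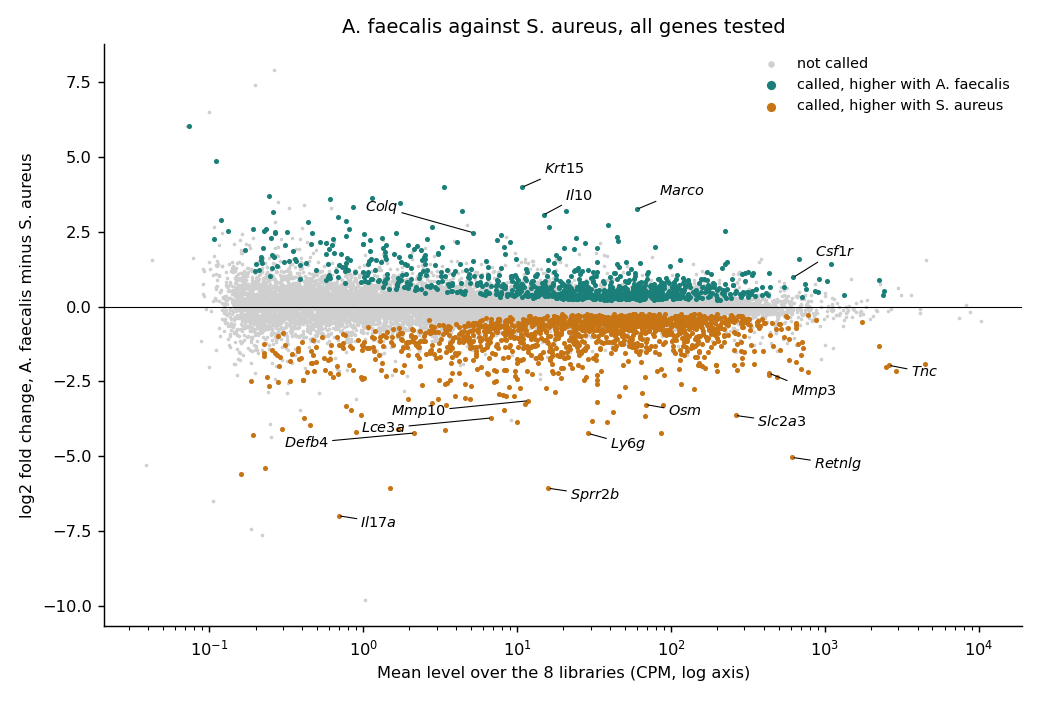
Each point is 1 of the 18218 genes tested, placed by its mean level over the 8 libraries (CPM, log axis) and its log2 fold change (A. faecalis minus S. aureus); coloured points are called by edgeR. Among named genes with a mean of at least 1 CPM the changes reach from Krt15 at 3.98 to Sprr2b at -6.07.

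The called genes with the widest differences were taken from those that averaged 1 CPM or more and whose groups did not overlap. The 10 highest with A. faecalis were Krt15, Ppm1n, Gucy2g, Marco, Serpina3b, Krt77, Il10, Slc13a3, Cd300e and Thrsp, and the 10 highest with S. aureus were Sprr2b, Retnlg, Ly6g, Defb4, Ngp, Chil5, Lpo, Slc26a4, Alox8 and Rptn. Slc13a3, a transporter of dicarboxylates, was at 44.3, 76.1, 87.1 and 63.7 CPM with A. faecalis and 10.9, 9.22, 11.5 and 9.88 CPM with S. aureus (log2 fold change 2.71, SE 0.36, edgeR adjusted p = 0.00146). The vehicle libraries were at 47.0 to 47.9 CPM apart from replicate 3 at 13 CPM. Thrsp, a lipogenic gene of fat cells, was at 24.4 to 30.0 against 2.11 to 7.71 CPM (2.66, adjusted p = 0.0254) and lost its call without A. faecalis replicates 3 or 4 or S. aureus replicates 2, 3 or 4. Slc26a4, the anion exchanger pendrin, was at 0.862 to 1.8 against 11.6 to 25.6 CPM (-3.86, SE 0.48, adjusted p = 0.00104). Alox8, a lipoxygenase, was at 3.60 to 8.23 against 56.6 to 85.7 CPM, with vehicle anywhere from 2.56 to 57.1 CPM (-3.84, SE 0.68, adjusted p = 0.00498).

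The proteases differed in a small set of secreted metalloproteinases, all of them higher with S. aureus. Of 21 matrix metalloproteinases tested, 5 were called higher with S. aureus (Mmp10, Mmp13, Mmp3, Mmp12 and Mmp1b) and 0 higher with A. faecalis by edgeR, DESeq2 or limma-voom. At an unadjusted p under 0.05 there were 7 and 1. The share called higher with S. aureus among all genes was 7.62%. Mmp10, stromelysin-2, a broad-spectrum enzyme of wound-edge keratinocytes, had the smallest adjusted p of all genes. It stood at 2.30, 2.60, 2.25 and 2.44 CPM in the A. faecalis libraries, at 21.1, 24.8, 21.4 and 17.6 CPM in the S. aureus libraries and at 9.35 ± 1.96 CPM (mean ± SD, n = 4) with vehicle. The 2 bacterial groups lay on opposite sides of every vehicle library, and the log2 fold change was -3.15 (SE 0.17, edgeR adjusted p = 6.98e-06), 8.85-fold higher with S. aureus.

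Mmp13, collagenase-3, which cuts fibrillar collagen, was at 19.3, 20.2, 8.78 and 13.4 CPM with A. faecalis and 125, 100, 161 and 71.6 CPM with S. aureus (log2 fold change -2.89, SE 0.39, edgeR adjusted p = 0.00146). The groups lay far apart, while the vehicle libraries spanned 36.6 to 116 CPM. Mmp3, stromelysin-1, an activator of other proenzymes, was the most abundant of the 5. Its level was 148, 143, 141 and 179 CPM with A. faecalis against 824, 725, 734 and 575 CPM with S. aureus (log2 fold change -2.23, SE 0.30, edgeR adjusted p = 0.00154). The vehicle libraries ranged from 88.7 to 322 CPM and so covered the A. faecalis levels but none of the S. aureus levels. Mmp12, macrophage elastase, was at 18.3 to 25.8 CPM with A. faecalis and 69.7 to 138 CPM with S. aureus (log2 fold change -2.34, SE 0.32, edgeR adjusted p = 0.00171). Mmp1b was low in all groups, at 1.09 to 1.45 CPM against 1.88 to 3.79 CPM (log2 fold change -1.35, edgeR adjusted p = 0.00432). These 5 calls held in each fit without 1 library.

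Called Mmp12 and Mmp13 averaged 67.5 and 65.0 CPM over the 8 libraries, and the metalloproteinases above them, apart from Mmp3, were not called. Mmp2, gelatinase A of fibroblasts, was at 212 to 284 CPM with A. faecalis and 287 to 365 CPM with S. aureus, groups that did not overlap (log2 fold change -0.33, edgeR adjusted p = 0.113). Mmp14, the membrane enzyme that activates pro-Mmp2, was at 392 to 565 against 404 to 453 CPM (0.18, adjusted p = 0.505), and Mmp19 at 121 to 148 against 128 to 145 CPM (-0.10, adjusted p = 0.591). Mmp8 and Mmp9, which neutrophils store in granules, had overlapping groups with log2 fold changes of -0.88 and -0.52 (edgeR adjusted p = 0.451 and 0.478). Mmp25, a neutrophil membrane enzyme, did not overlap, at 11.5 to 36.7 against 38.3 to 56.8 CPM (-0.91, adjusted p = 0.348). Mmp15, a membrane-type enzyme, did not overlap either and was closest to the threshold (-0.40, adjusted p = 0.0606). Mmp28, epilysin of keratinocytes, was higher with A. faecalis in every library without a call (0.73, adjusted p = 0.125). The other 8 metalloproteinases, Mmp11, Mmp16, Mmp17, Mmp20, Mmp21, Mmp23, Mmp24 and Mmp27, had log2 fold changes from -0.21 to 0.18, and the sign of 5 of them (Mmp11, Mmp20, Mmp21, Mmp24 and Mmp27) changed with a left-out library. None of the 4 tissue inhibitors was called by edgeR, DESeq2 or limma-voom, and 1 had an unadjusted p under 0.05. Timp1, the inhibitor induced by cytokines, was at 64.0 to 101 CPM with A. faecalis and 90.5 to 170 CPM with S. aureus (log2 fold change -0.70, adjusted p = 0.274). Timp4, also made by fat cells, was at 20.7 to 31.8 against 6.05 to 14.7 CPM without overlap (1.55, adjusted p = 0.128), and was called without vehicle replicate 3, which held 161 CPM.

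**Figure D2:**
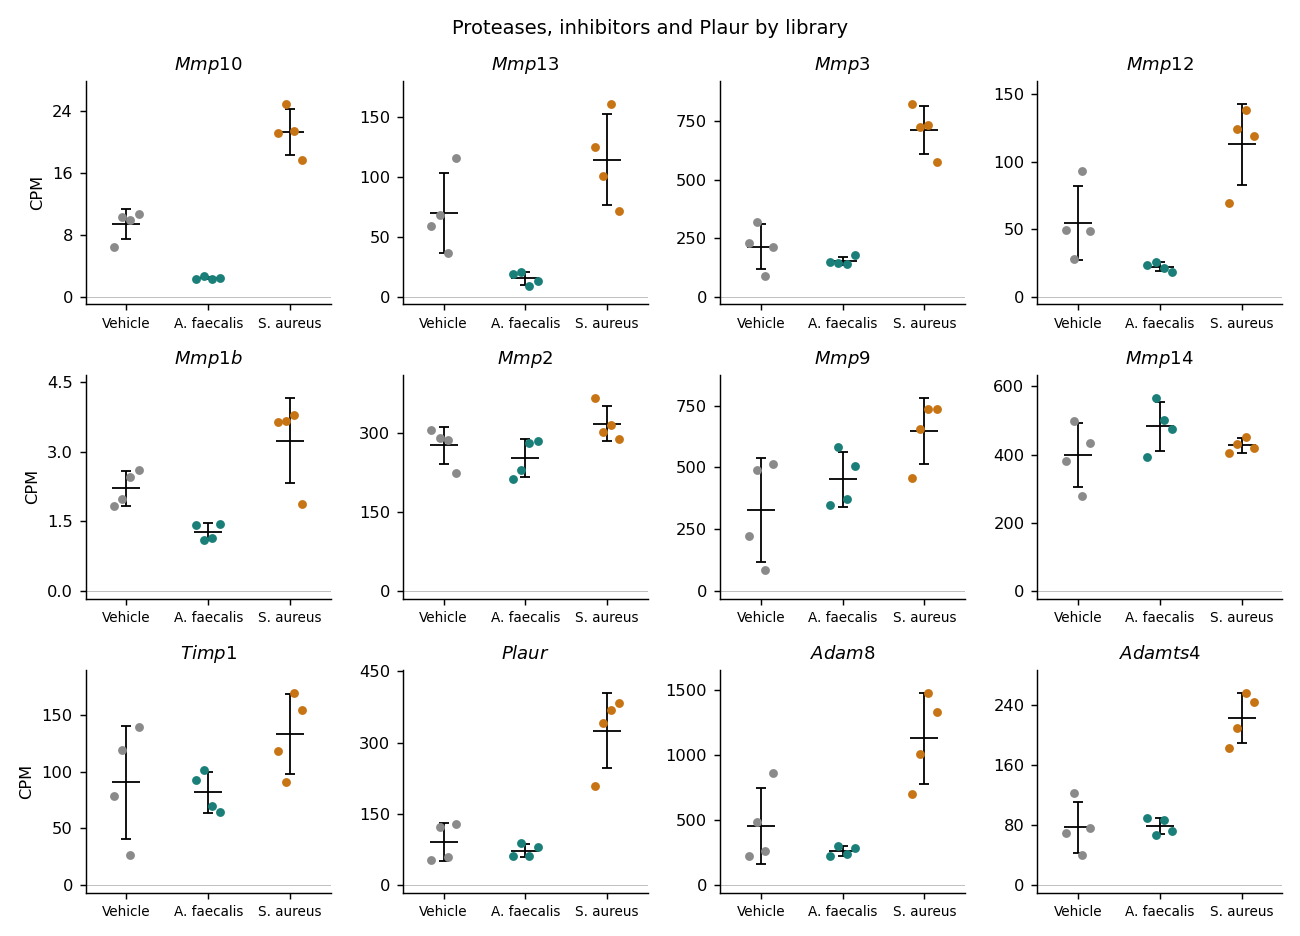
Levels (CPM) of metalloproteinases, an inhibitor, the urokinase receptor and other proteases in each library; points are mice, the horizontal mark is the mean and the bar the SD of 4 libraries. Mmp10, Mmp13, Mmp3, Mmp12 and Mmp1b separate the bacterial groups, while Mmp9, Mmp14 and Timp1 overlap.

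Among other proteases of the cell surface and matrix, called genes were mostly higher with S. aureus. Of 18 ADAM and ADAMTS genes 6 were higher with S. aureus and 1, Adam9, higher with A. faecalis, the latter lost without any 1 of 5 libraries. Adam8, a membrane protease of activated myeloid cells, was at 223, 304, 239 and 287 CPM with A. faecalis and 698, 1006, 1478 and 1332 CPM with S. aureus (log2 fold change -2.10, SE 0.39, edgeR adjusted p = 0.0063). Adamts4 and Adamts9, which cut proteoglycans, changed by -1.50 and -1.0 on the log2 scale (adjusted p = 0.00479 and 0.00535). In the plasminogen system 4 of 11 genes were higher with S. aureus and 0 higher with A. faecalis by any of the 3 tools, or at an unadjusted p under 0.05. Plaur, the receptor that holds urokinase at the leading edge of migrating cells, was at 61.5 to 87.9 CPM with A. faecalis, 209 to 384 CPM with S. aureus and 52.9 to 129 CPM with vehicle (log2 fold change -2.16, SE 0.31, edgeR adjusted p = 0.002). F3, tissue factor, and Thbd, thrombomodulin, which start and restrain clotting, differed less (-0.60 and -1.04, adjusted p = 0.00403 and 0.00512).

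Stress and migration genes of keratinocytes were higher with S. aureus across much of their list. Of 24 stress keratin and wound-edge genes, 15 were called higher with S. aureus and 0 higher with A. faecalis by edgeR, DESeq2 or limma-voom, and 16 and 0 had an unadjusted p under 0.05. The median log2 fold change was -0.98 against 0.02 for all genes. Itga2, the collagen receptor that keratinocytes use to cross the wound bed, was at 13.8 to 16 CPM with A. faecalis, 21.3 to 27.9 CPM with S. aureus and 18.5 to 21.3 CPM with vehicle (log2 fold change -0.74, SE 0.09, edgeR adjusted p = 0.00104). Gjb2 encodes connexin 26 of gap junctions. It was at 47.4, 75.0, 70.4 and 68.2 CPM against 301, 314, 210 and 139 CPM (-1.89, SE 0.23, adjusted p = 0.00104), and the 4 vehicle libraries lay between at 134 to 166 CPM, below S. aureus apart from replicate 4. Hmga2, a chromatin protein of growing and migrating cells, was at 7.95 to 11.2 against 18.0 to 24 CPM (-1.12, adjusted p = 0.00135). The stress keratins Krt6a, Krt16 and Krt17, chosen after their values were seen, changed by -1.46, -1.49 and -1.35 (adjusted p = 0.00928, 0.00825 and 0.00994). Krt16 was at 159 to 245 CPM with A. faecalis and 306 to 951 CPM with S. aureus, whose replicate 4 was the lowest of its group for Krt6a, Krt16, Krt17 and Gjb2.

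Some ligands of the EGF receptor, which drive keratinocyte migration, were part of this pattern. Of 11 ligands and receptors, 3 ligands were called higher with S. aureus and 0 genes higher with A. faecalis by any of the 3 tools. Egf, Ereg, Btc, Epgn and Nrg1 were not called by edgeR. Called or not, 9 of the 11 genes had a negative and 2 a positive log2 fold change, from -1.72 to 2.14. Hbegf was at 10.1, 9.19, 10.6 and 8.44 CPM with A. faecalis and 37.9, 28.3, 36.6 and 23.0 CPM with S. aureus (log2 fold change -1.72, SE 0.16, edgeR adjusted p = 0.000592). All 4 vehicle libraries, at 14.5 to 19.8 CPM, lay between the bacterial groups. Tgfa was at 6.80 to 12.8 against 20.7 to 40.2 CPM (-1.70, SE 0.22, adjusted p = 0.00131) and Areg at 3.46 to 4.14 against 7.79 to 10.5 CPM (-1.23, SE 0.17, adjusted p = 0.00147). As bulk skin was sequenced, fewer cells of a type and less RNA per cell cannot be told apart for these and all later genes.

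General markers of basal keratinocytes had a median log2 fold change of -0.29. Of 14 basal keratinocyte genes 14.3% were called, near the 12.7% of all genes. Krt15 was higher with A. faecalis and Cdh3, P-cadherin, higher with S. aureus. Cdh3 lost its call without any 1 of 8 libraries (edgeR adjusted p = 0.0448, up to 0.12). The summed level of the 14 genes was 2297 to 2700 CPM with A. faecalis, 2032 to 3566 CPM with S. aureus and 2612 to 4637 CPM with vehicle. Krt14, the main keratin of basal cells, was at 272 to 501 CPM against 475 to 1439 CPM (log2 fold change -1.05, adjusted p = 0.0514), and its partner Krt5 at 151 to 326 against 192 to 549 CPM (-0.49, adjusted p = 0.351). The part of keratinocyte content in the wound-edge difference was not tested. Krt15, found in quiescent basal keratinocytes and in stem cells of the follicle bulge, had the largest log2 fold change in favour of A. faecalis among called genes with a standard symbol that averaged at least 1 CPM and did not overlap (3.98, SE 0.61, edgeR adjusted p = 0.00257). Its level was 7.25, 22.9, 24.9 and 26.4 CPM with A. faecalis, 2.14, 1.0, 0.533 and 1.48 CPM with S. aureus and 12.9 to 51.7 CPM with vehicle. All A. faecalis libraries but replicate 1 were within the vehicle range, and the S. aureus libraries were far beneath it. Krt77, a keratin of suprabasal interfollicular skin and sweat ducts, followed the same order, at 18.0 to 47.0, 1.04 to 8.15 and 34.6 to 141 CPM (3.20, SE 0.61, adjusted p = 0.00695).

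Called genes of the cornified layer were mostly higher with S. aureus. Among 31 suprabasal and cornified genes 10 were higher with S. aureus and 2 (Krt77 and Flg2) higher with A. faecalis. Among 22 small proline-rich and late cornified envelope genes 10 were higher with S. aureus and 1, Sprr3, higher with A. faecalis, a call that was lost without any 1 of 8 libraries. The median log2 fold changes of these lists were -0.76 and -0.98. Rptn, a filament-binding protein of the upper epidermis, was at 1.69 to 6.66 CPM with A. faecalis and 23.8 to 114 CPM with S. aureus (log2 fold change -3.81, SE 0.61, edgeR adjusted p = 0.00313). Alox12b, a lipoxygenase of the barrier lipids, and Tgm1, the transglutaminase that cross-links the envelope, changed by -2.51 and -2.29 on the log2 scale (adjusted p = 0.00104 and 0.00171). Krt10, the keratin of normal suprabasal cells, was at 44.8 to 127 CPM against 9.14 to 93.4 CPM (0.80, adjusted p = 0.386). Sprr2b, an envelope precursor induced by stress, had the lowest log2 fold change among the named genes with a mean of at least 1 CPM, at 0.456, 0.301, 0.333 and 0.854 CPM with A. faecalis and 41.7, 44.5, 22.8 and 16.7 CPM with S. aureus (-6.07, SE 0.93, adjusted p = 0.00258). The vehicle libraries ran from 0.158 to 11 CPM, below every S. aureus library, and reads shared by close Sprr2 copies make the single-gene values uncertain.

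The Lce3 genes, envelope proteins known to be induced in injured and inflamed skin, changed together. Lce3a was at 0.659, 0.617, 0.919 and 1.71 CPM with A. faecalis and 18.6, 12.8, 11.5 and 7.73 CPM with S. aureus (log2 fold change -3.72, SE 0.37, edgeR adjusted p = 0.000713). Lce3b and Lce3f followed, with changes of -3.45 and -2.93 (adjusted p = 0.000713 and 0.000719), and for all 3 genes the vehicle libraries, at 2.30 to 5.32 CPM, lay between the groups. Desmosome genes were higher with S. aureus in 5 of 14 and higher with A. faecalis in 0 by any of the 3 tools. That count was 2 without A. faecalis replicates 1 or 2 or S. aureus replicates 1 or 2, and 3 without A. faecalis replicate 3. Dsc2, a desmosomal cadherin, was at 6.62 to 8.0 CPM against 21.3 to 32.7 CPM (-1.91, SE 0.25, adjusted p = 0.00141), while Dsg3 had groups that overlapped by 1 library (-1.13, adjusted p = 0.0135). None of 14 sebaceous gland genes was called by edgeR or limma-voom; DESeq2 called 2 higher with A. faecalis, and 3 had an unadjusted p under 0.05.

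**Figure D3:**
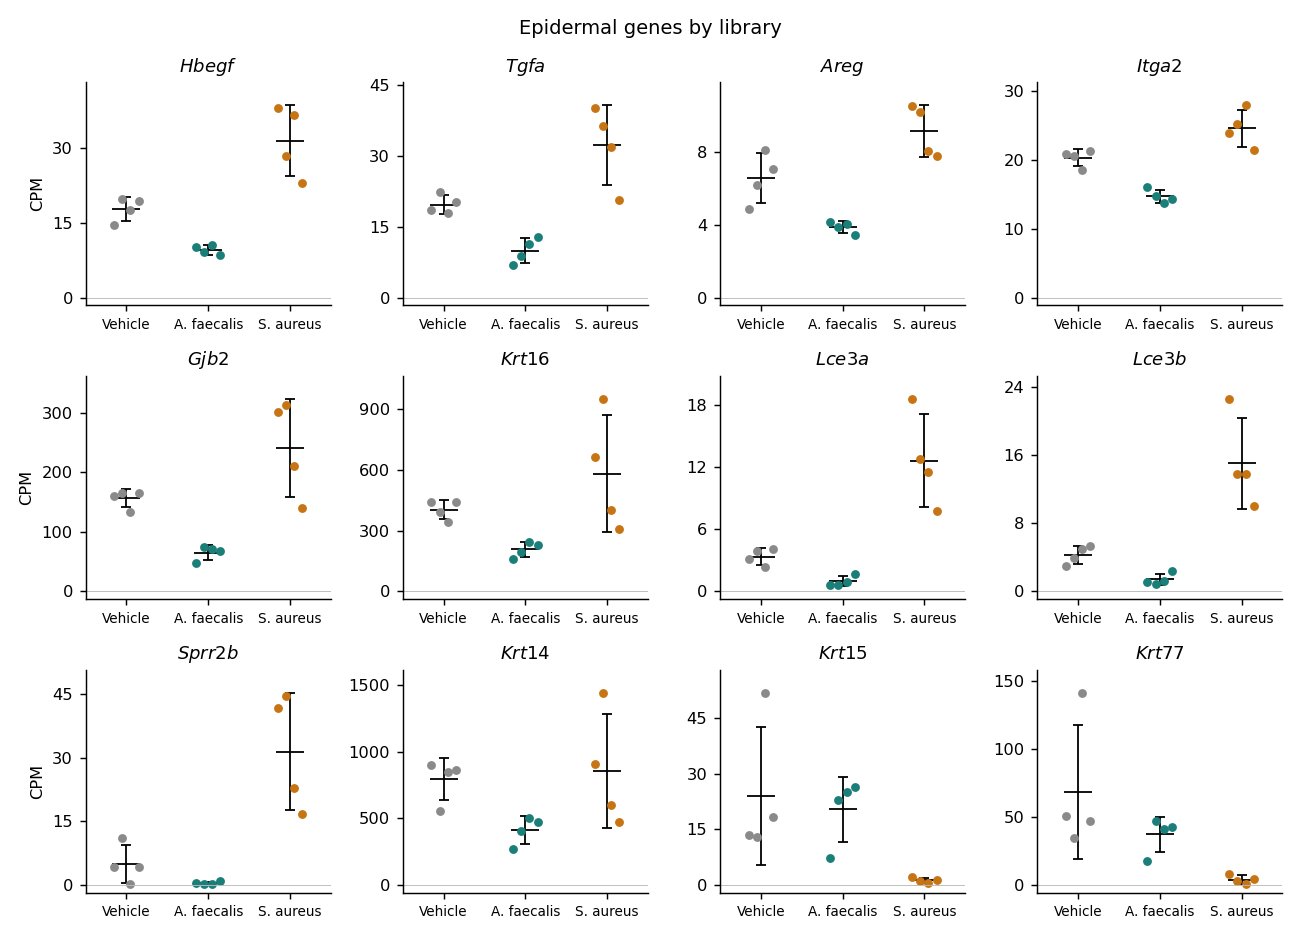
Levels (CPM) of epidermal genes in each library; points are mice, the horizontal mark is the mean and the bar the SD of 4 libraries. Hbegf, Tgfa, Areg, Lce3a and Lce3b are lowest with A. faecalis and highest with S. aureus, while Krt15 and Krt77 are lowest with S. aureus.

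The promoters of Mmp10, the gene with the smallest adjusted p, and of Lce3a, Lce3b and Lce3f, which lie close together on chromosome 3 and changed together, are shown to let the sequences be compared. Each is the 250 bases before the RefSeq start in build GRCm38.p6, 5′ to 3′ on the gene's strand. The positions are chr9:7502092-7502341 (plus strand) for Mmp10, chr3:92926231-92926480 (minus strand) for Lce3a, chr3:92932729-92932978 (plus strand) for Lce3b and chr3:92991967-92992216 (plus strand) for Lce3f. Capitals mark exact matches, on either strand, to the AP-1 motif TGANTCA or the C/EBP motif TTGCNNAA.
Mmp10: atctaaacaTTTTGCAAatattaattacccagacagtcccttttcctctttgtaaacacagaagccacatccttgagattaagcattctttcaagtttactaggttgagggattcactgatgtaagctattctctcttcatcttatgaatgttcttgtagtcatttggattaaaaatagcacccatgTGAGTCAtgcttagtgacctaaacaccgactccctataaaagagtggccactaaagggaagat
Lce3a: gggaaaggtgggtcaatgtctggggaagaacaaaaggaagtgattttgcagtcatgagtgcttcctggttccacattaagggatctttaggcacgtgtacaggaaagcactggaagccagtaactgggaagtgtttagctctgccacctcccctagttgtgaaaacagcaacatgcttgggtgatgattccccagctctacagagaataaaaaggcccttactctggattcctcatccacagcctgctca
Lce3b: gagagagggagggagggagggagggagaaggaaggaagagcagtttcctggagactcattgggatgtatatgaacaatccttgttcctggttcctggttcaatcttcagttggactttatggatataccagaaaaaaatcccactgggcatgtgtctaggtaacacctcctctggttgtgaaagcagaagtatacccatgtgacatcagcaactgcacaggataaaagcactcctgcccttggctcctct
Lce3f: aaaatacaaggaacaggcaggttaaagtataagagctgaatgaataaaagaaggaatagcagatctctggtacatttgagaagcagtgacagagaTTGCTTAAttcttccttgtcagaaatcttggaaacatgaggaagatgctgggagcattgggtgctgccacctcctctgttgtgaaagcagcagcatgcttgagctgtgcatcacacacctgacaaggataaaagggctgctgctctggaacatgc
The Mmp10 promoter holds 1 AP-1 match that begins 63 bases before the start and 1 C/EBP match that begins 241 bases before it. Lce3f holds 1 C/EBP match 155 bases before its start, and Lce3a and Lce3b hold neither motif. Base by base at the same distance from the start, the Lce3 promoters were identical at 24% to 29.6% of positions. That comparison allowed no gap or shift, so it cannot show stretches shared at unequal distances. Each Lce3 window holds the run gttgtgaaa, for example, at a different distance from its start. Of 12248 tested genes with a promoter sequence 5.23% hold an AP-1 match, of the 947 called higher with S. aureus 8.55% and of the 691 called higher with A. faecalis 6.08%. For the C/EBP motif the shares were 8.09%, 11.2% and 9.41%. For a STAT motif, TTCNNNGAA, absent from these 4 windows, the shares were 6.09%, 6.55% and 5.35%. A match is a run of letters and not a measured binding site.

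Many neutrophil genes were higher with S. aureus. Of 32 neutrophil markers 14 were called higher with S. aureus and 0 higher with A. faecalis by edgeR, DESeq2 or limma-voom, and the median log2 fold change was -1.26. The summed level of the list was 5239 to 10672 CPM with A. faecalis, 16588 to 26242 CPM with S. aureus and 2754 to 16353 CPM with vehicle. The count was 5 without A. faecalis replicate 3, and 8 or 9 without A. faecalis replicates 1 or 4 or S. aureus replicates 2, 3 or 4. Ly6g, a surface marker of mouse neutrophils, was at 1.49, 4.00, 1.38 and 4.91 CPM with A. faecalis and 44.7, 48.5, 76.7 and 50.6 CPM with S. aureus (log2 fold change -4.24, SE 0.87, edgeR adjusted p = 0.0097). The vehicle libraries spread from 1.03 to 28.4 CPM, so that 2 of them were above every A. faecalis library. Retnlg, a secreted protein of mature neutrophils, was at 16.5 to 53.6 against 725 to 1601 CPM (-5.04, SE 1.02, adjusted p = 0.00928), and Cd177, a neutrophil adhesion protein, at 6.19 to 12.5 against 91.1 to 179 CPM (-3.64, SE 0.55, adjusted p = 0.00254). Ngp, a granule protein, was lower with A. faecalis too (-4.22, adjusted p = 0.0405), a call lost without any 1 of 9 libraries. S100a8 and S100a9, the calgranulin subunits, chosen after their values were seen, were at 581 to 1389 and 609 to 1482 CPM with A. faecalis and 3502 to 4991 and 3828 to 6219 CPM with S. aureus (-2.02 and -2.15, adjusted p = 0.0388 and 0.0486), calls lost without any 1 library of either bacterial group.

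The receptors for neutrophil-attracting chemokines, already counted among the neutrophil markers, were called higher with S. aureus, and the chemokines themselves were not called. Cxcr1 and Cxcr2, the receptors for these chemokines, changed by -2.73 and -1.73 on the log2 scale (edgeR adjusted p = 0.0152 and 0.0272), of which Cxcr1 lost its call without A. faecalis replicate 3 (0.0507) and Cxcr2 without any 1 of 6 libraries. Of 8 neutrophil-attracting chemokines 0 were called by edgeR or limma-voom; DESeq2 called 2 higher with S. aureus, and 2 had an unadjusted p under 0.05. Cxcl1 was at 31.4, 88.4, 46.1 and 80.6 CPM with A. faecalis and 174, 184, 223 and 181 CPM with S. aureus, without overlap (-1.63, SE 0.55, adjusted p = 0.072). Cxcl5 did not overlap either (-1.0, adjusted p = 0.0981), and Cxcl2 did, at 283 to 921 against 706 to 2462 CPM (-1.39, adjusted p = 0.236).

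Many macrophage genes were higher with A. faecalis. Of 20 monocyte and macrophage markers 10 were called higher with A. faecalis, against 5.06% of all genes, and 0 higher with S. aureus by edgeR or limma-voom; DESeq2 called 1, and 2 had an unadjusted p under 0.05. The summed level was 6259 to 9897 CPM with A. faecalis, 5389 to 6937 CPM with S. aureus and 5706 to 8772 CPM with vehicle. The count was 5 or 6 without A. faecalis replicates 2, 3 or 4 or S. aureus replicates 2 or 4. Csf1r, the receptor for the macrophage growth factor CSF-1, was at 618, 1012, 776 and 908 CPM with A. faecalis and 436, 397, 447 and 405 CPM with S. aureus (log2 fold change 0.97, SE 0.17, edgeR adjusted p = 0.00415). Emr1, the gene of the macrophage antigen F4/80, was at 207 to 416 against 101 to 138 CPM (1.43, SE 0.24, adjusted p = 0.00359), and Mertk, a receptor for the uptake of dying cells, at 90.2 to 109 against 51.3 to 60.6 CPM (0.75, SE 0.10, adjusted p = 0.00162). For all 3 genes the bacterial groups did not overlap. C1qa, a complement subunit made by macrophages and chosen after its values were seen, differed by 0.41 (adjusted p = 0.0382), a call lost without any 1 of 7 libraries.

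Genes of macrophage subsets pointed both ways. Marco, a scavenger receptor that binds bacteria, was at 32.5, 122, 114 and 168 CPM with A. faecalis and 10.0, 10.2, 8.76 and 16.8 CPM with S. aureus (log2 fold change 3.25, SE 0.71, edgeR adjusted p = 0.0133). The vehicle libraries were at 6.70 to 17 CPM apart from replicate 2 at 76.4 CPM. Cd300e, an activating receptor of monocytes, was at 2.15 to 7.69 against 0.622 to 1.02 CPM (2.67, adjusted p = 0.00883). Of 21 repair-associated and resident macrophage genes 3 (Cd163, F13a1 and Folr2) were higher with A. faecalis and 5 higher with S. aureus. The first count was 1 without A. faecalis replicate 4 and 6 without vehicle replicate 3. Cd209f, a lectin of resident skin macrophages, was at 8.90 to 11.3 CPM against 16.3 to 20.8 CPM (-0.89, adjusted p = 0.00273), and Spp1, osteopontin, a secreted matrix protein, at 210 to 324 against 394 to 1618 CPM (-1.87, adjusted p = 0.0099). Lyve1, on resident macrophages and lymph vessels, was at 35.9 to 54.8 against 81.1 to 119 CPM (-1.08, adjusted p = 0.00378). Mrc1, the mannose receptor, was higher with A. faecalis without overlap, at 964 to 1209 against 554 to 824 CPM, and was not called (0.75, adjusted p = 0.0582).

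In the lymphoid, dendritic and mast cell lists 14.3% to 16.7% of the genes tested were called, near the 12.7% over all genes. Cd4 was at 10.5 to 14.4 CPM with A. faecalis, 5.72 to 8.83 CPM with S. aureus and 6.48 to 7.62 CPM with vehicle (log2 fold change 0.97, SE 0.15, edgeR adjusted p = 0.00283), and it was 1 of 3 called genes among 21 T and NK cell genes. Icos, a costimulatory receptor of activated T cells, was higher with S. aureus, whose replicate 4 fell within the A. faecalis range (-1.35, adjusted p = 0.0279), and its call was lost without any 1 of 5 libraries. Among 18 dendritic cell and MHC class II genes, Ccr7, the receptor that guides dendritic cells to lymph nodes, was at 2.90 to 4.53 against 7.43 to 11 CPM (-1.34, adjusted p = 0.00432). Of 13 mast cell genes 2 were called, Kit and Tpsab1, both higher with S. aureus. Kit, a growth factor receptor shared with melanocytes, was at 27.9 to 34.9 CPM with A. faecalis, 66.4 to 91.3 CPM with S. aureus and 28.2 to 40.4 CPM with vehicle (-1.21, SE 0.14, adjusted p = 0.000759).

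Among sensors of bacteria, 26.7% of the Gram-negative list and 11.1% of the Gram-positive list were called, against 12.7% of all genes. Of 15 genes that sense the Gram-negative envelope 4 were higher with A. faecalis, a count of 2 without any 1 of 7 libraries, and 0 higher with S. aureus by edgeR or limma-voom (DESeq2 called 1). Aoah, an enzyme that inactivates lipopolysaccharide, was at 70.3, 154, 119 and 158 CPM with A. faecalis and 35.7, 32.6, 35.2 and 23.3 CPM with S. aureus (log2 fold change 1.98, SE 0.35, edgeR adjusted p = 0.00512). Ticam2, an adaptor of Tlr4, was at 24.9 to 38.8 against 16.8 to 20.9 CPM (0.80, SE 0.14, adjusted p = 0.00408), and Ly96 at 9.67 to 15 against 6.25 to 7.91 CPM (0.77, adjusted p = 0.0366), a call lost without any 1 of 7 libraries. The mean level of Tlr4 itself was 152 CPM in both bacterial groups (SD 17.7 with A. faecalis and 18.5 with S. aureus, n = 4 each). These sensors are also macrophage genes, whose markers moved the same way, and the part of macrophage content in their difference was not tested. Of 18 Gram-positive sensing genes 2 were higher with S. aureus, Pglyrp4, a peptidoglycan-binding protein of epidermis (-2.12, adjusted p = 0.00322), and Clec7a, the myeloid receptor dectin-1 (-1.30, adjusted p = 0.00519). Tlr2 was at 88.4 to 196 against 95 to 167 CPM (0.19, adjusted p = 0.801).

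Il17a and the interleukin-20 family cytokines were scarce with A. faecalis and higher with S. aureus. Il17a, which drives epidermal defence and neutrophil recruitment, had 2 counts in A. faecalis replicate 1 and 0 in the others, against 65, 76, 65 and 45 counts with S. aureus. Scaled to library size, the ratio was 156 (exact 95% interval 42.8 to 1300, counting error only), and edgeR's adjusted p was 0.00212. The vehicle libraries held 26 counts in all. Il20, a keratinocyte-activating cytokine, had 13 counts in all with A. faecalis and 138 with S. aureus (ratio 13.2, interval 7.47 to 25.4; adjusted p = 0.00217). Il19, of the same family, was at 0.488 to 0.830 CPM against 1.92 to 10.9 CPM (log2 fold change -3.29, SE 0.64, adjusted p = 0.00747). In all, 6 of 20 genes of this list were higher with S. aureus and 1, the receptor gene Il20ra, higher with A. faecalis, a call lost without any 1 of 9 libraries. Il17f, which acts through the same receptor as Il17a, had 309 counts with A. faecalis and 425 with S. aureus (ratio 1.71, interval 1.47 to 1.99) and was not called.

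Among other inflammatory signals more genes were called higher with S. aureus than with A. faecalis. Of 17 genes of interleukin-6, oncostatin M and the colony-stimulating factors, 4 were higher with S. aureus and 1, Lifr, higher with A. faecalis. Osm, oncostatin M of neutrophils and macrophages, was at 13.8, 15.6, 8.38 and 13.8 CPM with A. faecalis and 76.4, 118, 144 and 160 CPM with S. aureus (log2 fold change -3.27, SE 0.46, edgeR adjusted p = 0.00179), and its receptor gene Osmr at 93.8 to 143 against 195 to 216 CPM (-0.82, adjusted p = 0.00371). Lifr, a related receptor, was higher with A. faecalis, at 258 to 304 against 147 to 201 CPM (0.77, adjusted p = 0.00501). Il6, chosen after its values were seen, was at 4.53 to 8.56 against 20.1 to 48.6 CPM (-2.37, adjusted p = 0.0399), a call lost without any 1 library of either bacterial group. Il10, an anti-inflammatory cytokine, was at 11.4, 40.2, 14.4 and 40.3 CPM with A. faecalis and 2.43, 4.54, 3.07 and 2.64 CPM with S. aureus (3.06, SE 0.73, adjusted p = 0.0188), a call lost when S. aureus replicate 3 or replicate 4 was left out (highest adjusted p 0.0558). The vehicle libraries ran from 3.00 to 45.1 CPM, across the range of both groups. A. faecalis replicates 2 and 4 were the highest of their group for Il10, as they were for Tnf, Cxcl1 and Ly6g.

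Of 16 interleukin-1 family genes 8 were higher with S. aureus and 1, Il18, higher with A. faecalis (lost without any 1 of 4 libraries). The first count was 2 without A. faecalis replicate 3 and 4 or 5 without A. faecalis replicates 1, 2 or 4 or S. aureus replicates 1 or 2. Il33, an alarmin of injured epithelium, was at 61.1 to 80.1 CPM against 131 to 166 CPM (log2 fold change -0.94, SE 0.18, edgeR adjusted p = 0.00617), and its receptor gene Il1rl1 at 50.3 to 69.2 against 87.4 to 111 CPM (-0.65, adjusted p = 0.0061). Il1r2, a decoy receptor that neutrophils carry, had a log2 fold change of -2.10 (adjusted p = 0.0161, and 0.0529 without A. faecalis replicate 3). Il1b was at 402 to 747 against 1024 to 2048 CPM without overlap and was not called (-1.30, adjusted p = 0.13). Its antagonist Il1rn was at 269 to 932 against 145 to 238 CPM (1.59, adjusted p = 0.0738), and Tnf at 53.4 to 162 against 23.0 to 59.1 CPM (1.67, adjusted p = 0.0709). Of 16 tumour necrosis factor family genes 4 were called higher with S. aureus and 0 higher with A. faecalis by edgeR. Called or not, 9 had a positive and 7 a negative log2 fold change. Among the 4, Tnfrsf12a, the receptor for TWEAK on wound cells, was at 15.6 to 21.6 against 28.0 to 31.6 CPM (-0.69, SE 0.11, adjusted p = 0.00251). The chemokines for other leukocytes showed no common direction. Of 23 tested, 2 were called higher with S. aureus and 1, Ccl27a, higher with A. faecalis (1.05, adjusted p = 0.0246). Called or not, 11 had a positive and 12 a negative log2 fold change, with a median of -0.01 against 0.02 for all genes. Ccl22, which attracts regulatory and helper T cells, was at 1.74 to 3.11 against 7.60 to 14.6 CPM (-2.23, SE 0.25, adjusted p = 0.000779). Ccl20, the ligand of Ccr6, was at 0.333 to 0.593 against 0.813 to 1.41 CPM (-1.37, adjusted p = 0.00799).

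**Figure D4:**
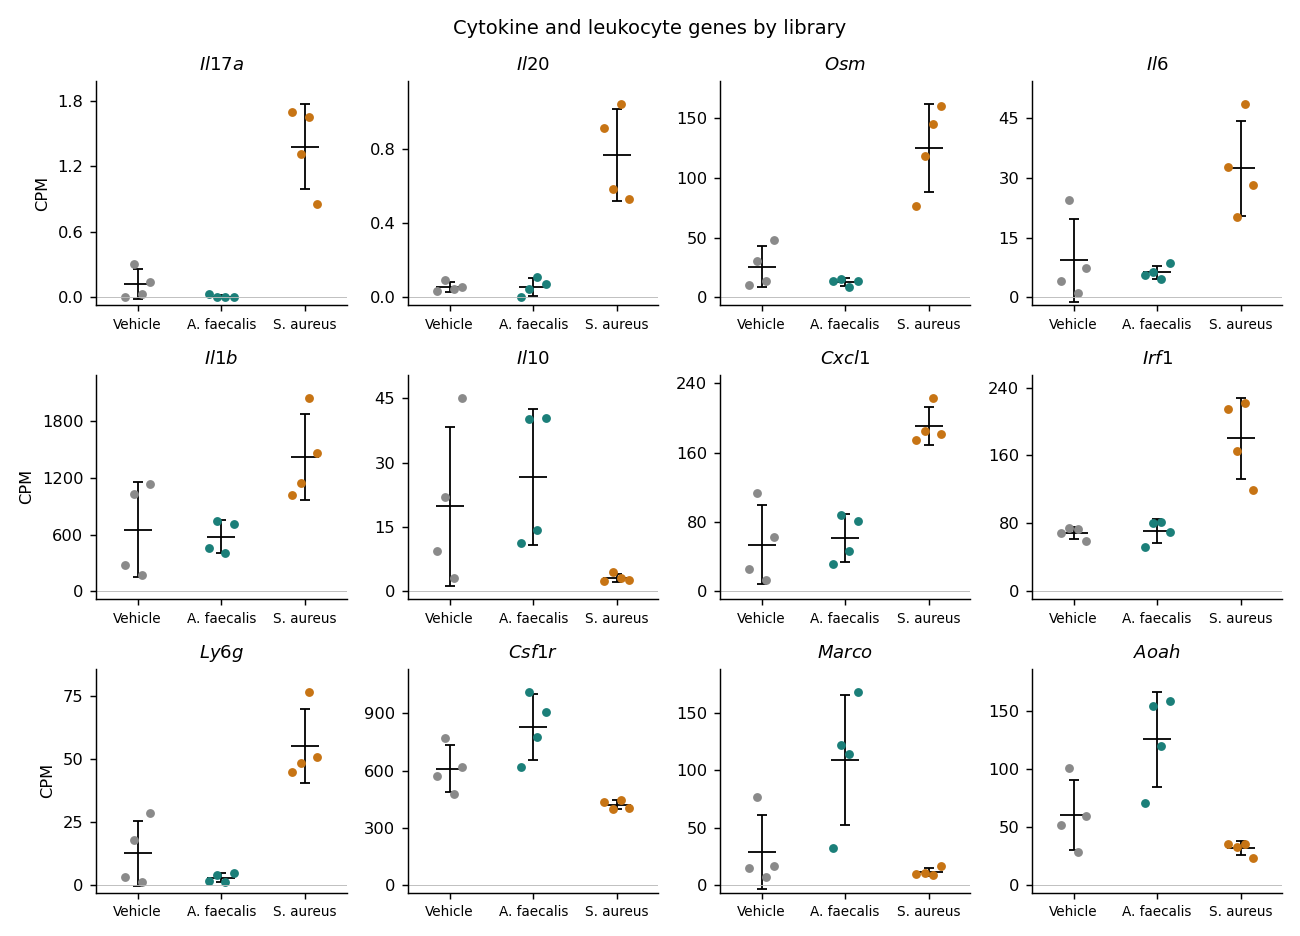
Levels (CPM) of cytokine and leukocyte genes in each library; points are mice, the horizontal mark is the mean and the bar the SD of 4 libraries. Il17a, Il20, Osm, Il6, Irf1 and Ly6g are highest with S. aureus, and Csf1r, Marco and Aoah are highest on average with A. faecalis.

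Called antimicrobial genes were mostly, and called interferon-stimulated genes always, higher with S. aureus. Of 25 antimicrobial and acute-phase genes 8 were higher with S. aureus and 1, Orm1, higher with A. faecalis. The first count was 5 without A. faecalis replicates 2 or 3. The 8 genes include S100a8 and S100a9, already counted among the neutrophil markers, whose calls were lost without any 1 library of either bacterial group. Defb4, a beta-defensin that epithelium makes in response to interleukin-17, was at 0.338, 0.0861, 0.158 and 0.308 CPM with A. faecalis and 5.28, 6.43, 2.69 and 1.92 CPM with S. aureus (log2 fold change -4.22, SE 0.48, edgeR adjusted p = 0.000795). All 4 vehicle libraries, at 0.692 to 1.02 CPM, lay between the groups. Defb14 and the lectin Reg3g changed by -2.07 and -2.60 on the log2 scale (adjusted p = 0.00283 and 0.00475). Of 26 interferon-stimulated genes 14 were higher with S. aureus and 0 higher with A. faecalis by any of the 3 tools, all 26 had a negative log2 fold change, and the count was 9 without A. faecalis replicate 3 or S. aureus replicate 3. Oas3, an antiviral enzyme, was at 23.8 to 41.2 CPM against 111 to 205 CPM (-2.10, SE 0.26, adjusted p = 0.00104). Irf1, a transcription factor induced by interferons, was at 51.6 to 81.8 against 120 to 221 CPM, with vehicle at 58.9 to 75.0 CPM (-1.34, SE 0.20, adjusted p = 0.00215). Ifng, interferon gamma, chosen after its values were seen, was at 0.0317 to 0.115 against 0.285 to 0.711 CPM (-2.52, SE 0.67, adjusted p = 0.0295), a call lost without any 1 of 6 libraries. In the complement list 4 of 19 genes were higher with A. faecalis, among them Cd55, which shields host cells; the count was 2 without A. faecalis replicate 4. Cd55 was at 61.4 to 81.7 against 29.9 to 39.3 CPM (1.13, SE 0.13, adjusted p = 0.000759). F5, clotting factor V, was the reverse, at 9.58 to 18.1 against 47.6 to 64.0 CPM (-2.16, SE 0.37, adjusted p = 0.00406).

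**Figure D5:**
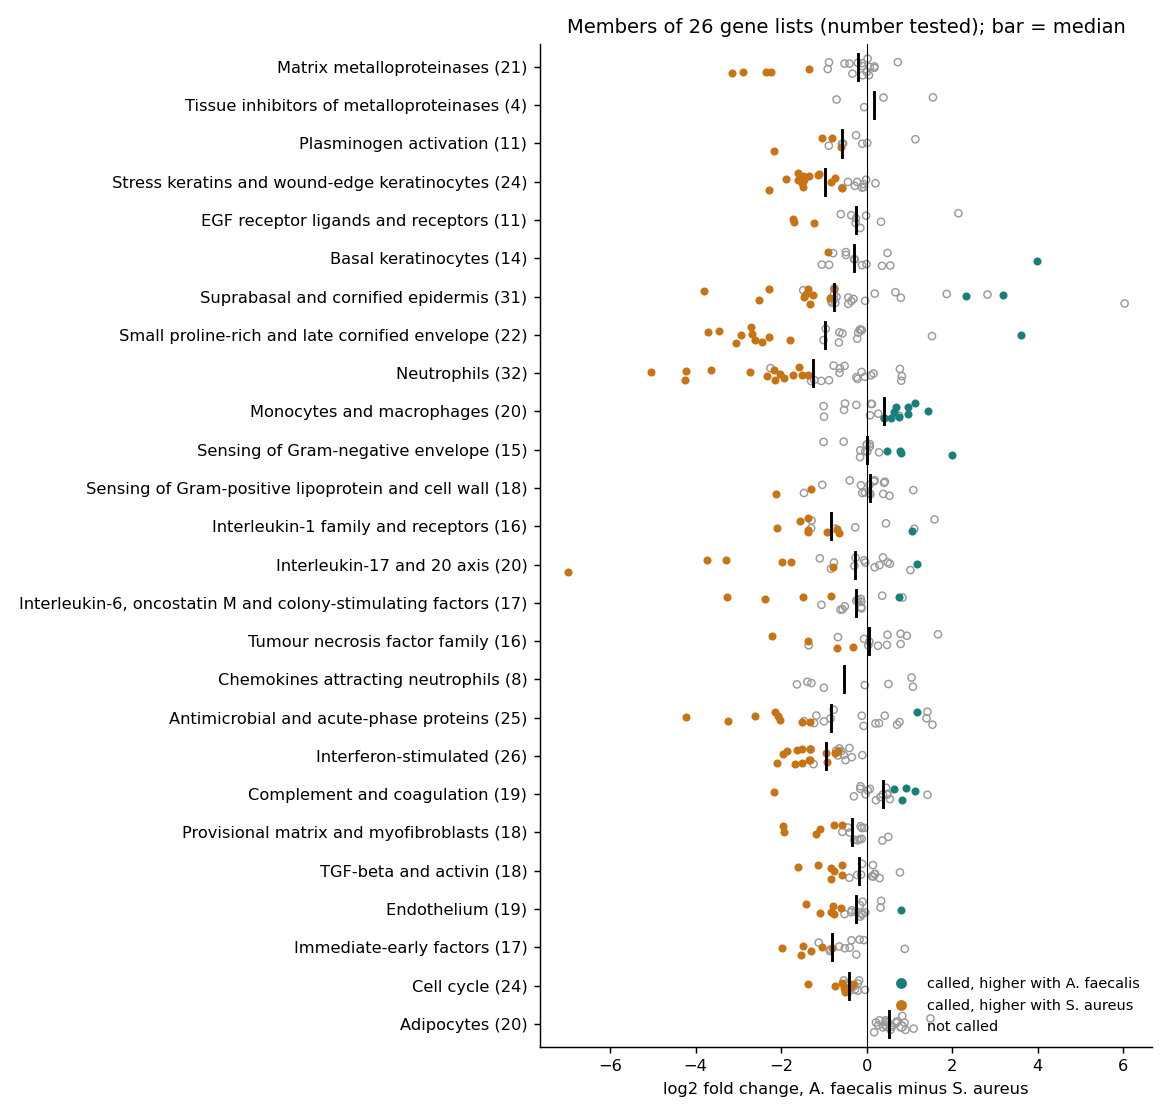
Each point is a gene, placed by its log2 fold change (A. faecalis minus S. aureus), in 26 of the gene lists with the number tested in brackets; filled points are called and the black bar is the median. Medians reach from -1.26 for neutrophils to 0.53 for adipocytes.

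In the dermis, called genes of the matrix and vessels were mostly higher with S. aureus. Of 18 provisional matrix genes 6 were higher with S. aureus and 0 higher with A. faecalis by any of the 3 tools; the count was 2 or 3 without A. faecalis replicates 2, 3 or 4 or S. aureus replicates 3 or 4. Tnc, tenascin-C, a matrix protein of early wounds, was at 1277, 944, 1014 and 1023 CPM with A. faecalis and 3884, 3603, 4642 and 4476 CPM with S. aureus (log2 fold change -1.96, SE 0.37, edgeR adjusted p = 0.00628). Thbs1, thrombospondin-1, was at 1572 to 2255 against 3953 to 9436 CPM (-1.92, adjusted p = 0.0177), a call lost when replicate 3 of either bacterial group was left out. Col1a1, the main fibrillar collagen chain, was at 5945 to 7405 against 7429 to 9154 CPM and was not called (-0.37, adjusted p = 0.248). Pdgfrb, a receptor of fibroblasts and pericytes, was at 164 to 205 against 272 to 299 CPM (-0.62, adjusted p = 0.003), and Twist2, a dermal transcription factor, at 9.99 to 11.3 against 19.4 to 23.2 CPM (-0.97, adjusted p = 0.000719). Of 18 TGF-beta and activin genes 7 were higher with S. aureus and 0 higher with A. faecalis by edgeR or limma-voom; DESeq2 called 1. Inhbb, an activin subunit, was at 56.6 to 70.7 against 112 to 154 CPM (-1.14, SE 0.12, adjusted p = 0.000734), and Fstl3, which binds activin, at 12.5 to 15.4 against 22.4 to 27.3 CPM (-0.84, adjusted p = 0.000803).

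Growth factors for epidermis and vessels were also higher with S. aureus in 6 of 20 genes, 3 without A. faecalis replicates 2 or 4 or S. aureus replicates 3 or 4, and higher with A. faecalis in 0 by any of the 3 tools (3 without vehicle replicate 3). Fgf7, keratinocyte growth factor from fibroblasts, was at 22.4 to 30.5 CPM against 46.4 to 54.5 CPM (log2 fold change -1.03, SE 0.18, edgeR adjusted p = 0.00431), and Vegfa, the main vessel growth factor, at 74.8 to 109 against 130 to 251 CPM (-1.15, adjusted p = 0.00806). Of 19 endothelial genes 6 were higher with S. aureus. Selp, P-selectin, on which leukocytes roll, was at 35.6 to 42.4 CPM with A. faecalis, 87.9 to 130 CPM with S. aureus and 27.9 to 51.0 CPM with vehicle (-1.42, SE 0.17, adjusted p = 0.00104). Icam1, which arrests leukocytes, was the 1 endothelial gene higher with A. faecalis. None of 11 pericyte genes was called by edgeR or limma-voom (DESeq2 called 1 in each direction, and 2 had an unadjusted p under 0.05).

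Colq, the collagen tail of acetylcholinesterase, followed Mmp10 with the next smallest adjusted p of all genes. Its level was 10.5, 8.76, 8.78 and 7.04 CPM with A. faecalis and 1.72, 1.87, 1.22 and 1.52 CPM with S. aureus (log2 fold change 2.47, SE 0.17, edgeR adjusted p = 6.98e-05). The vehicle libraries, at 2.62 to 3.31 CPM, lay between the groups, and Colq was the 1 called gene among 12 of the neuromuscular junction and the cholinesterases. Among 9 melanocyte genes, Mitf, the lineage regulator, and Ednrb, an endothelin receptor, were higher with A. faecalis (0.52 and 0.85, adjusted p = 0.00236 and 0.00576). So was Oca2, a melanosome transporter chosen after its values were seen, at 0.617 to 1.81 against 0.0261 to 0.380 CPM (2.86, SE 0.60, adjusted p = 0.0101). Kit, also of mast cells, was the 1 melanocyte gene called higher with S. aureus (-1.21). Mitf was at 48.9 to 54.5 CPM with A. faecalis, 35.5 to 37.8 CPM with S. aureus and 45.9 to 57.9 CPM with vehicle.

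Metabolic and growth-response genes completed the comparison. Slc2a3, a high-affinity glucose transporter, was at 30.4, 46.0, 23.9 and 56.5 CPM with A. faecalis and 256, 364, 629 and 702 CPM with S. aureus (log2 fold change -3.64, SE 0.65, edgeR adjusted p = 0.00521). It was 1 of 3 genes higher with S. aureus among 20 of hypoxia and glycolysis, a count that became 8 when vehicle replicate 3 was left out, and 5 when vehicle replicate 4 or S. aureus replicate 1 was. In retinoic acid metabolism 5 of 16 genes were higher with S. aureus, among them Aldh1a2, which makes retinoic acid (2.28 to 4.23 against 8.10 to 16.3 CPM; -2.13, adjusted p = 0.00498), and Dhrs9, which makes its precursor (25.1 to 38.5 against 82.6 to 105 CPM; -1.60, adjusted p = 0.000713). Another 2 of the retinoic acid genes, Aldh1a1 and Dhrs3, were called higher with A. faecalis. In the insulin and IGF list Irs2, an insulin receptor substrate, was at 75.8 to 99.4 against 123 to 149 CPM (-0.62, adjusted p = 0.00595). Of 17 immediate-early genes 6 were higher with S. aureus (3 without any 1 of 6 libraries), with Egr1 at 51.1 to 82.6 against 173 to 346 CPM (-1.97, SE 0.33, adjusted p = 0.00387) and Myc at 32.2 to 35.7 against 54.9 to 62.0 CPM (-0.80, SE 0.11, adjusted p = 0.00182). Of 24 cell cycle genes 8 were higher with S. aureus and 0 higher with A. faecalis by any of the 3 tools. Leaving out A. faecalis replicate 2, A. faecalis replicate 4 or S. aureus replicate 4 gave a count of 2. It was 3 without A. faecalis or S. aureus replicate 3, 4 without S. aureus replicates 1 or 2, 5 without vehicle replicate 2, and 14 without vehicle replicate 1 or A. faecalis replicate 1. Rrm2, which makes DNA precursors, was at 28.6 to 39.2 against 53.4 to 55.7 CPM (-0.74, adjusted p = 0.00251), and the proliferation marker Mki67 at 176 to 217 against 199 to 240 CPM (-0.18, adjusted p = 0.496). Adipoq, adiponectin of fat cells, was at 126 to 223 against 78.1 to 163 CPM (0.56, adjusted p = 0.488), and none of 20 adipocyte genes was called by the 3 tools (1 had an unadjusted p under 0.05), although 5 were higher with A. faecalis without vehicle replicate 3.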

How the data were processed

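RNA of 12 wounds was sequenced from stranded, ribosomal RNA-depleted libraries, per the labels' protocols. The authors deposited estimated counts per gene in 1 table. The submitters' processing notes name FastQC 0.12.1, kallisto 0.48.0, R 4.1.3, DESeq2 1.34.0 and build GRCm39; their roles, the summing of transcripts to genes and the use of strand are not given in the sources used here. Estimated reads shared by near-identical genes (Sprr2, Lce, Krt6, Skint, histones) can be divided wrongly, so single values of such genes are uncertain, and reads of a gene and an antisense partner may not be told apart.

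The estimated counts were rounded to whole numbers. An entry with no gene name, 0.00909% to 0.0151% of each library, was left out. Genes were kept by edgeR's filterByExpr (minimum count 10, minimum total 15) and scaled by TMM. One quasi-likelihood model (edgeR 4.0.16, limma 3.58.1, R 4.3.3) with a mean for each of the 3 groups of 4 libraries gave the comparisons, two-sided, with Benjamini-Hochberg adjustment over all 18218 genes and a threshold of 0.05. Totals of 38.4 to 71.3 M counts set the counting precision. Intervals cover counting error only.

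The text names the 10 called genes with the highest and the 10 with the lowest log2 fold change (mean of at least 1 CPM, no overlap), up to 3 called genes a list by smallest adjusted p, all metalloproteinases and their inhibitors, and defining genes that were not called. Some further called genes, such as Adam9, Il18 and Icam1, are named only to show which members a count holds. The report marks other genes outside that rule as chosen with their values in view. Predicted genes, 176 of those called, are not named. The comparison and the 49 gene lists were chosen with earlier results of these data known. Alternatives were DESeq2 size factors, upper-quartile scaling, DESeq2 1.42.0, limma-voom, other filters and thresholds, only the 8 libraries compared, a replicate block, and each library left out. The scripts were tested on simulated data. Promoters came from RefSeq, build GRCm38.p6, which is not the build of the counts, and were matched by symbol for 12248 of the 18218 genes. A result on 1 gene is not reported here.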

Additional observations from a re-analysis of the deposited data

Results flagged for a closer look

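In 15 of 368 groups of 4 libraries (184 genes in each bacterial group), 1 library stood apart from the other 3 by Dixon's test at the 95% level. Chance flags about 1 in 20 groups.

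S. aureus replicate 1 was apart in 4 genes. Its Cd55 level was 39.3 CPM against 29.9 to 31.1 in the other 3 libraries, and its Cd4 level 8.83 CPM against 5.72 to 6.17. Its Mmp19 level was 128 CPM against 144 to 145, and its Tnfrsf1a level 288 CPM against 304 to 306. S. aureus replicate 3 was apart with Slfn4, a myeloid gene, at 2071 CPM against 934 to 1068, with Tchh, trichohyalin of hair follicles, at 8.03 CPM against 2.75 to 3.27, and with Aldh1a2 at 8.10 CPM against 15.2 to 16.3. S. aureus replicate 4 held 1.88 CPM of Mmp1b against 3.63 to 3.79, and replicate 2 held 51.3 CPM of Mertk against 60.0 to 60.6.

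A. faecalis replicate 1 was apart in 4 genes. Its Tgm1 level was 22.9 CPM against 32.4 to 34.2, its Il33 level 61.1 CPM against 79.1 to 80.1, and its Fgf7 level 30.5 CPM against 22.4 to 23.6. It held the only Il17a counts of its group, at 0.0338 CPM. A. faecalis replicate 4 held 8.23 CPM of Alox8 against 3.60 to 4.19, and replicate 3 held 122 CPM of Cxcl5 against 158 to 160. None of these values turned the direction of a called gene when its library was left out.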

How the results depend on the processing

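The count of 2310 called genes was 2271 with DESeq2 size factors, 2335 with upper-quartile scaling, 3453 with DESeq2, 2205 with limma-voom, 1929 without a filter, 3459 from the 8 libraries alone, 53 against a minimum change of 2-fold and 3650 at an adjusted p under 0.1. Without 1 library it ranged from 1313 to 3457. The 922 genes higher with A. faecalis became 1394 with DESeq2, 1567 from the 8 libraries, 9 against 2-fold and 1576 at an adjusted p under 0.1, and 484 to 1590 without 1 library. The 1388 genes higher with S. aureus became 44 against 2-fold and 829 to 1867 without 1 library. Replicate numbers did not pair the libraries (correlations of same-numbered deviations 0.0244, -0.0865, -0.14 and -0.0643); with the replicate block 2120 genes were called, 1876 of them shared, 798 higher with A. faecalis and 1322 with S. aureus.

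Of the 149 named genes that were called, 124 were called in every fit without 1 library. Signs changed only in genes near 0 that were not called. Mmp11 was -0.0458 with limma-voom, -0.0069 with the replicate block and -0.116 to 0.162 without 1 library. Without 1 library Mmp20 was -0.0465 to 0.256, Mmp21 -0.234 to 0.381 and Mmp27 -0.0595 to 0.15. Mmp24 was -0.00726 with DESeq2 size factors, -0.00108 with DESeq2 and -0.116 to 0.21 without 1 library, and Tlr4 was -0.00855, -0.00887 and -0.0718 to 0.0729. The cause was not tested. Upper-quartile scaling turned the median of the chemokines for other leukocytes from -0.01 to 0.02 and of the pericyte genes from -0.02 to 0.01. Genes with few counts, such as Il17a and Il20, are limited by depth, and the 4 mice in each group limit every comparison.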

Other observations

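Families of related genes were examined beyond the lists, although a few members also stand in a list. All 17 were chosen after values were seen and have no test of the family, 6 held called genes in both directions, and 5 are described. Of 9 Clec4 genes, lectin receptors of monocytes and dendritic cells, 6 were higher with A. faecalis and 0 higher with S. aureus by edgeR. Clec4a1 was at 109, 218, 167 and 188 CPM with A. faecalis and 63.5, 50.4, 65.7 and 50.2 CPM with S. aureus (log2 fold change 1.57, SE 0.27, edgeR adjusted p = 0.00405). Of 9 Skint genes, butyrophilin-like genes of skin and thymus epithelium that act on epidermal gamma-delta T cells, 5 were higher with A. faecalis. Skint1 was at 1.1 to 2.08 CPM with A. faecalis, 0.470 to 0.722 CPM with S. aureus and 1.67 to 3.56 CPM with vehicle (1.42, SE 0.28, adjusted p = 0.00759). Of 14 cathepsins, mostly lysosomal proteases, 4 were higher with A. faecalis and 1, Ctse, higher with S. aureus.

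Higher with S. aureus were 8 of 11 kallikreins, serine proteases that shed cornified cells. Klk13 was at 2.54 to 6.76 CPM with A. faecalis, 16.1 to 49.3 CPM with S. aureus and 9.66 to 12.2 CPM with vehicle (log2 fold change -2.86, SE 0.35, edgeR adjusted p = 0.00104). All 12 histone H4 genes tested were higher with S. aureus, with Hist1h4c at 38.1 to 44.1 against 59.6 to 81.0 CPM (-0.74, SE 0.11, adjusted p = 0.00217). Ctla4, Il2ra and Grem1 belong to none of these families or lists and were chosen after their values were seen. Ctla4 and Il2ra, which regulatory and activated T cells carry, were at 0.490 to 1.02 and 7.83 to 10.5 CPM with A. faecalis and 1.58 to 4.15 and 17.1 to 31.7 CPM with S. aureus (-1.95 and -1.36, adjusted p = 0.00566 and 0.00104). Grem1, a secreted antagonist of bone morphogenetic proteins, was at 7.95 to 10.1 against 31.9 to 55.7 CPM (-2.35, SE 0.30, adjusted p = 0.00104).

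Of the 2310 called genes, 1943 had a vehicle mean between the 2 bacterial means. In 349 the vehicle mean lay beyond that of A. faecalis and in 18 beyond that of S. aureus. Both bacterial groups are set against the same 4 vehicle libraries here. The genes were also selected for a gap between the bacterial groups, which by itself favours a vehicle mean in between. These counts therefore only describe an order of means.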
